A study of Rattus norvegicus with 12 samples.

Results

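The genes described here were 10 members of the integrated stress response: the transcription factor genes Atf4, Atf3 and Ddit3, the feedback regulators Trib3 and Ppp1r15a, the amino acid enzymes Asns, Psat1 and Phgdh, the glutathione-degrading enzyme Chac1 and the lipoprotein receptor Vldlr. They were found on the Affymetrix Rat Genome 230 2.0 array as every probe set (a group of short probes against 1 transcript) that the platform annotation gave only that symbol, which took 15 of 31042 probe sets and 10 of 14217 named genes. Trib3 had 3 probe sets, Vldlr had 4 and each of the other 8 genes had 1. The rule that picks the probe sets uses no measured value, but the members themselves were chosen with earlier results of these data known.

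RNA came from F111, a rat fibroblast cell line, in 2 states. Colony cells were F111 cells that had spent 16 h in suspension (NA16 cells), had then been kept for 7 days in soft agar, and were left to attach for a short period after the agar was disrupted. A16 cells, the control, were F111 cells plated on plastic for 16 h. Both states were grown in the same medium with fetal calf serum, and arrays of NA16 or tumour cells were not used here. Each group had 3 arrays, from 2 biological replicates and 1 further technical array, so that n = 2 cultures per group. One of the labels of Colony biological replicate 2 speaks of tumour formation while its others name the colony cells, and it was kept as Colony. The 2 states differed in attachment, in time in culture, in selection and in karyotype together, and these cannot be told apart. The paper reports chromosomal abnormalities that were more frequent in colony cells than in the adherent control. Of the members, Atf4 and Ddit3 lie on chromosome 7, which was gained in most of the colony karyotypes and in few of the A16 karyotypes. The part of gene copy number in the values below was not tested. In such bulk RNA, fewer cells of a type and less RNA per cell cannot be told apart either.

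The integrated stress response starts with kinases that phosphorylate the translation initiation factor eIF2α, which lowers protein synthesis as a whole while translation of the Atf4 mRNA goes up. The ATF4 protein then switches on genes for amino acid supply, for other transcription factors such as ATF3 and CHOP (the product of Ddit3), and for proteins that end the response. Because ATF4 is set largely by translation, an array measures its mRNA and the mRNA of its targets and not its activity.

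Values are RMA intensities, a brightness in arbitrary units that is comparable between arrays for 1 probe set and not between probe sets. Over all probe sets the median intensity was 97.6 to 99.4 on the Colony arrays and 99.6 to 101 on the A16 arrays. A difference was tested with limma on log2 values (Benjamini-Hochberg over all 31042 probe sets) and is said to have risen or fallen where the adjusted p was under 0.05 and the fold change over 2. By that rule 3045 probe sets differed (9.81%), of which 1242 were higher in Colony cells and 1803 (5.81% of all) were lower. Of the genes, each taken by its brightest probe set, 4.36% were higher and 4.75% lower. The control probe sets for the 3′ and 5′ ends of the same transcript separated the groups. The 3′ over 5′ ratio of beta-actin was 3.76 to 4.28 on the Colony arrays and 1.39 to 1.43 on the A16 arrays. That of GAPDH was 1.11 to 1.73 in Colony and 0.949 to 1.02 in A16 cells, and that of hexokinase 4.82 to 7.89 in Colony and 1.74 to 2.64 in A16 cells. Of the 12 fibroblast markers, 10 lay above the median level of all probe sets, and 5 fell in Colony cells, among them Col1a1. At an adjusted p under 0.05 whatever the fold, 7 were lower and 1 was higher, beside 10.8% and 12.9% of all genes. The higher one was Pdgfra, with a log2 fold change of 0.55. Their summed intensity was 57300 to 62200 in Colony and 78600 to 90700 in A16 cells, to which Col1a1 alone gave 2071 to 4294 in Colony and 14535 to 22396 in A16 cells. Of 10 macrophage and leukocyte markers 3 lay above the median level, only Csf1r rose, and their sum was 1690 to 1770 in Colony and 1290 to 1470 in A16 cells. To that sum Csf1r alone gave 538 to 824 in Colony and 34.4 to 44.9 in A16 cells. At an adjusted p under 0.05 whatever the fold, 1 of these markers was higher and 1, Cd14, was lower. Of 9 epithelial markers 1 lay above the median level and only Krt8 rose (sum 3290 to 4040 in Colony, 1030 to 1130 in A16). Krt8 alone gave 2891 to 3668 of it in Colony and 669 to 794 in A16 cells. Whatever the fold, 2 epithelial markers were higher at an adjusted p under 0.05, Krt8 and Cdh1, and 0 were lower. Of 6 endothelial markers 0 lay above the median level and none rose (sum 219 to 271 in Colony, 192 to 212 in A16). Ptprc, Adgre1, Epcam and Krt18 had mean log2 intensities of at most 5.32 in either state, while Cd14 had 9.33 in Colony and 9.89 in A16 cells, Csf1r 9.28 in Colony and 5.27 in A16 cells, and Krt8 11.64 in Colony and 9.51 in A16 cells. The part that RNA quality or other cell types had in the results below was not tested.

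ATF4 binds DNA as a dimer with C/EBP proteins at a composite element, and ATF and CREB proteins bind the cyclic AMP response element. The promoters, from 250 bases before to 50 bases after the RefSeq transcription start in the rat build GRCr8, were searched on both strands for TGATGNAA and TGANGCAA (forms of the composite element, both of which are met where the fifth to eighth letters are GCAA after TGAT) and for the palindrome TGACGTCA, within the 250 bases before the start. Among 33469 promoters, 3.4% held the first, 3.16% the second, 1.59% the third and 7.31% at least 1 of them. A promoter was found for 9 of the 10 members, all but Atf3, and 3 of the 9 held a match. They are shown because they are the members whose letters fit the element, with the match in capitals, and they are not evidence of binding.
Trib3 (chr3:161275534-161275590, minus strand): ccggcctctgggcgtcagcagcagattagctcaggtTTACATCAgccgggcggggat
Chac1 (chr3:126795881-126796007, plus strand): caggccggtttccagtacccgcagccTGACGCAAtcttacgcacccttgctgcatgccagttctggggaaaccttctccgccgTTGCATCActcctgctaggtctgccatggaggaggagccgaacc
Ppp1r15a (chr1:105139619-105139698, minus strand): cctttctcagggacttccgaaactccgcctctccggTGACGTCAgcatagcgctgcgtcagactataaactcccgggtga
In Trib3 the match, on the opposite strand, lay 21 to 14 bases before the start. Chac1 had 1 match 224 to 217 bases before the start and 1 on the opposite strand at 167 to 160 bases, and Ppp1r15a had the palindrome at 66 to 59 bases. The motifs were chosen with the promoters in view. Of these 3 genes, Trib3 and Ppp1r15a fell in Colony cells and Chac1 was higher there, as given below.

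Colony cells carried less mRNA of 4 members than A16 cells: Trib3, Atf3, Ppp1r15a and Vldlr fell and were 2.28 to 4.51 times lower by their brightest probe sets, and no member rose. Atf4 and Asns were also lower and Chac1 was higher at an adjusted p under 0.05, but by less than 2 times. Ddit3, Psat1 and Phgdh did not pass the test. The 4 of 10 genes that fell stand beside 4.75% of all genes, and the 0 that rose beside 4.36%. At an adjusted p under 0.05 whatever the fold, 6 of the 10 members were lower and 1 was higher, where 10.8% and 12.9% of all genes were. The median log2 fold change (Colony over A16) was -0.76 over the 10 genes and 0.054 over all genes.

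**Figure D1:**
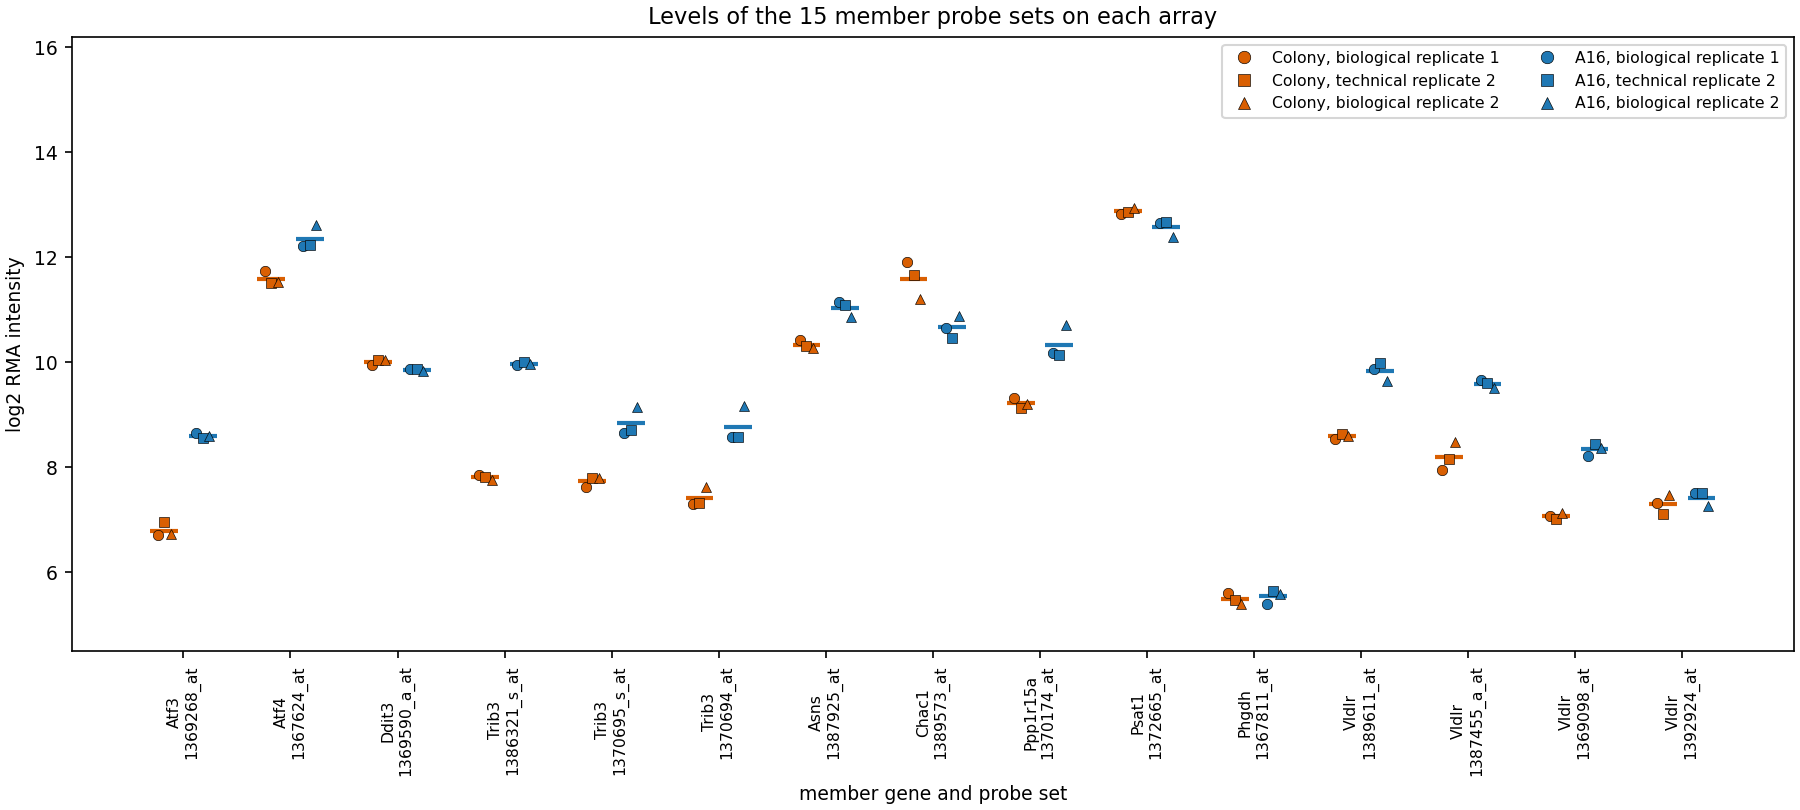
Log2 RMA intensity (vertical axis) of the 15 member probe sets (horizontal axis) on each array, Colony in orange and A16 in blue, with a bar at the mean of the 3 arrays. The 3 Colony symbols lie wholly below the 3 A16 symbols for 10 probe sets and wholly above for 3, and they overlap for Phgdh and for 1 Vldlr probe set.

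Atf4 encodes the bZIP factor at the centre of the response. Its probe set 1367624_at had intensities of 3405, 2906 and 2965 on the Colony arrays (in the order biological replicate 1, technical replicate 2 and biological replicate 2, which is kept throughout) and 4758, 4811 and 6313 on the A16 arrays. All 3 Colony arrays were below all A16 arrays, and A16 biological replicate 2 stood above the other A16 arrays. On the log2 scale the level was 11.58 ± 0.06 in Colony and 12.42 ± 0.28 in A16 cells (SD, n = 2 cultures), a log2 fold change of -0.85 (SE 0.17, 95% interval -1.25 to -0.45, limma adjusted p = 0.0124). This was a 1.80-fold difference, under the fold threshold. Without A16 replicate 1 it was -1.05 (adjusted p = 0.00329) and passed both thresholds, and without Colony replicate 2 it was -0.80 (adjusted p = 0.0526) and passed neither. The Atf4 probe set was bright in both states, above 96.5% of all probe sets in Colony and 98.4% in A16 cells.

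Atf3 encodes a bZIP repressor that is induced by ATF4 and by many other stimuli. Probe set 1369268_at gave 105, 124 and 105 in Colony cells, against 401, 375 and 387 in A16 cells. The groups were far apart, and the A16 arrays lay close together. Colony over A16 gave a log2 fold change of -1.82 (SE 0.13, 95% interval -2.13 to -1.51, limma adjusted p = 0.000193), or 3.54 times lower, and it passed both thresholds in all 14 alternative limma settings.

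Ddit3 encodes CHOP, a C/EBP relative that acts late in the response and is linked to cell death. Its intensities were 989, 1051 and 1058 in Colony and 936, 933 and 915 in A16 cells. Colony arrays were all the higher ones, but the difference was small, with a log2 fold change of 0.17 (95% interval -0.13 to 0.47, limma adjusted p = 0.418). Over the alternatives it stayed between 0.14 and 0.20. The paper lists Ddit3 in colony cells as over 2 times higher by microarray and as higher by less than 2 times by qPCR. Its array value was thus larger than the one found here, and the cause was not tested. The 3 transcription factor genes of the group thus gave 1 clear decrease, 1 decrease under 2 times and 1 small difference of the other sign.

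Trib3 encodes a pseudokinase that is a target of ATF4 and CHOP and restrains them. It had the largest difference of the members when each was taken by its brightest probe set. By the mean of a gene's probe sets, Atf3 had the larger one (log2 fold change -1.82, against -1.58 for Trib3). The brightest probe set, 1386321_s_at, read 233, 224 and 216 in Colony cells, against 982, 1029 and 998 in A16 cells. The replicates of each group were nearly level and the groups did not overlap. The log2 fold change was -2.17 (SE 0.13, 95% interval -2.48 to -1.87, limma adjusted p = 9.04e-05), or 4.51 times lower. Both other probe sets fell too, by less. Probe set 1370694_at had 156, 159 and 198 in Colony and 379, 380 and 572 in A16 cells, and 1370695_s_at had 198, 222 and 222 in Colony and 405, 416 and 566 in A16 cells. In both, A16 biological replicate 2 was the high array, which by RMA it was not in the brightest probe set. By PLIER, a second summary of the same arrays, the brightest probe set read 731, 793 and 915 in A16 cells, highest in biological replicate 2. The log2 fold changes of 1370694_at and 1370695_s_at were -1.40 (limma adjusted p = 0.00541) and -1.16 (limma adjusted p = 0.00478). Without A16 replicate 2 that of 1370695_s_at was -0.93, under the fold threshold. The suffix _s_at marks a probe set whose probes may match transcripts of several genes, which applies to 1386321_s_at and 1370695_s_at.

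Ppp1r15a encodes GADD34, the subunit that directs a phosphatase to eIF2α and so ends the response. It read 634, 560 and 594 in Colony cells, against 1148, 1124 and 1673 in A16 cells. The groups did not overlap, and A16 biological replicate 2 was again the highest array. For Ppp1r15a the log2 fold change was -1.21 (SE 0.20, 95% interval -1.68 to -0.74, limma adjusted p = 0.00581), 2.32 times lower. Without A16 replicate 2 it was -0.93 (adjusted p = 0.00764), under the fold threshold. On the log2 scale A16 culture 2 was above culture 1 by 0.40 for Atf4, 0.56 for Ppp1r15a, 0.59 for Trib3 probe set 1370694_at and 0.46 for 1370695_s_at, while the SD of that difference over all probe sets was 0.29. For Atf3, the brightest Trib3 probe set and Ddit3 it was 0.00, -0.01 and -0.03.

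Asns encodes asparagine synthetase, a classical target of ATF4 under amino acid shortage. Its intensities were 1371, 1259 and 1243 in Colony and 2250, 2179 and 1875 in A16 cells. All Colony arrays were below the A16 arrays, and the log2 fold change was -0.67 (SE 0.14, 95% interval -1.01 to -0.33, limma adjusted p = 0.0162), 1.59 times lower and under the fold threshold. The adjusted p was 0.0654 without A16 replicate 1 and 0.0689 without Colony replicate 2.

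Psat1 and Phgdh encode enzymes of serine synthesis. Psat1 was among the brightest probe sets of the array in both states, with 7294, 7480 and 7807 in Colony and 6426, 6529 and 5347 in A16 cells. Colony arrays were all the higher ones, and A16 biological replicate 2 was the lowest array. The log2 fold change was 0.37 (95% interval 0.02 to 0.72), which did not pass the adjustment (limma adjusted p = 0.132). Phgdh was dim, with 48.4, 44.3 and 42.3 in Colony and 42.3, 50.3 and 48.0 in A16 cells. The groups overlapped, with a log2 fold change of -0.09 (95% interval -0.40 to 0.22, limma adjusted p = 0.702), and its sign changed with the processing. Its level was above only 31.0% of all probe sets in A16 cells, so that a difference in Phgdh may not have been detectable.

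Chac1 encodes an enzyme that cleaves glutathione and is a target of ATF4, ATF3 and CHOP. It was the only member higher in Colony cells at an adjusted p under 0.05. Its intensities were 3832, 3251 and 2367 in Colony and 1604, 1416 and 1885 in A16 cells. The groups did not overlap, but Colony biological replicate 2 was much nearer to the A16 arrays than the other Colony arrays were. The log2 fold change was 0.78 (SE 0.22, 95% interval 0.26 to 1.30, limma adjusted p = 0.0451), 1.71 times higher, under the fold threshold. It was 1.07 (adjusted p = 0.0157) without Colony replicate 2, which passed both thresholds, and 0.49 (adjusted p = 0.157) without Colony replicate 1 and 0.62 (adjusted p = 0.116) without A16 replicate 1. Over the limma alternatives it ran from 0.49 to 1.07, with adjusted p from 0.00346 to 0.157. Chac1 and Trib3, both with letters of the composite element in their promoters, thus differed between the states in opposite directions.

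Vldlr encodes the very low density lipoprotein receptor, which takes up triglyceride-rich particles and binds reelin and which ATF4 has been reported to induce. The brightest of its probe sets, 1389611_at, read 372, 399 and 387 in Colony cells, against 939, 1009 and 800 in A16 cells. The groups did not overlap. This probe set had a log2 fold change of -1.19 (SE 0.15, 95% interval -1.54 to -0.84, limma adjusted p = 0.00196), 2.28 times lower. Probe set 1387455_a_at, which matches alternative transcripts of the gene, had 247, 285 and 357 in Colony and 808, 780 and 728 in A16 cells, and 1369098_at had 135, 129 and 140 in Colony and 296, 350 and 328 in A16 cells. Both fell, with log2 fold changes of -1.30 (limma adjusted p = 0.0027) and -1.26 (limma adjusted p = 0.000889). The fourth probe set, 1392924_at, gave 159, 138 and 178 in Colony and 181, 181 and 154 in A16 cells. These overlapped, the log2 fold change was -0.04 (95% interval -0.42 to 0.33, limma adjusted p = 0.895), and its sign depended on the processing. Which parts of the transcript the 4 probe sets read is not known here.

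**Figure D2:**
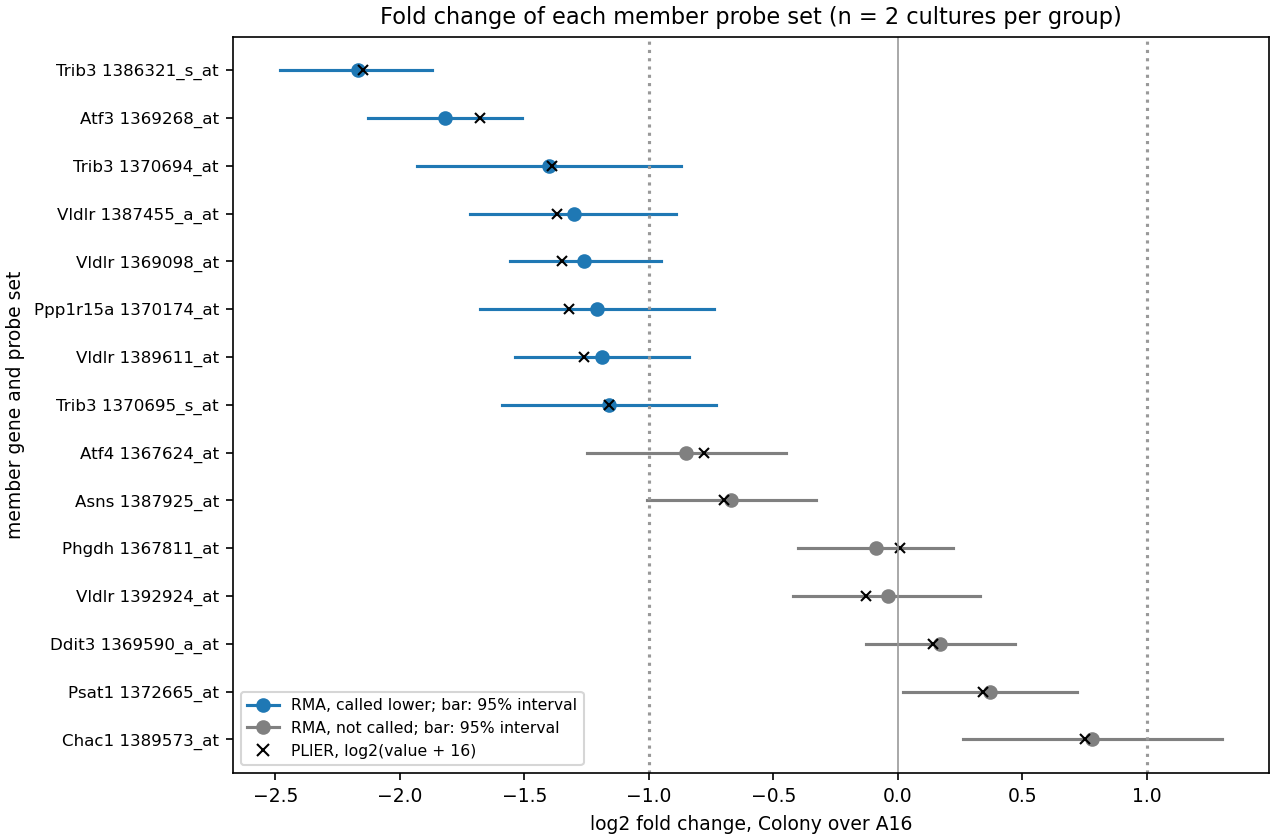
Log2 fold change, Colony over A16 (horizontal axis), of each member probe set from the RMA values (dots, with 95% interval from limma, n = 2 cultures per group) and from the PLIER values (crosses). Blue dots are the 8 probe sets that fell, dotted lines mark a 2-fold change, and the crosses lie near the dots, with the Trib3 probe set 1386321_s_at at -2.17 by RMA and -2.15 by PLIER.

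By probe set, 8 of 15 fell and none rose, beside 5.81% of all probe sets that fell and 9.81% that moved either way. These 8 belong to only 4 genes, with Trib3 and Vldlr counted more than once, so they add no further genes to the count. Without regard to the fold, Colony arrays lay wholly below A16 arrays for 10 of the 15 and wholly above for 3 (Ddit3, Psat1 and Chac1), beside 20.5% and 25.4% of all probe sets. The median log2 fold change of the 15 probe sets was -1.16. PLIER, a second summary of the same arrays, gave log2 fold changes (on values with 16 added) of -1.68 for Atf3, -0.78 for Atf4, -2.15 for the brightest Trib3 probe set, -1.32 for Ppp1r15a, -1.26 for the brightest Vldlr probe set, -0.70 for Asns and 0.75 for Chac1, the last with an adjusted p of 0.0774. Vldlr by the mean of its 4 probe sets was -0.95 (limma adjusted p = 0.00142), and so under the fold threshold, and Trib3 by the mean of its 3 was -1.58 (limma adjusted p = 0.000152).

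**Figure D3:**
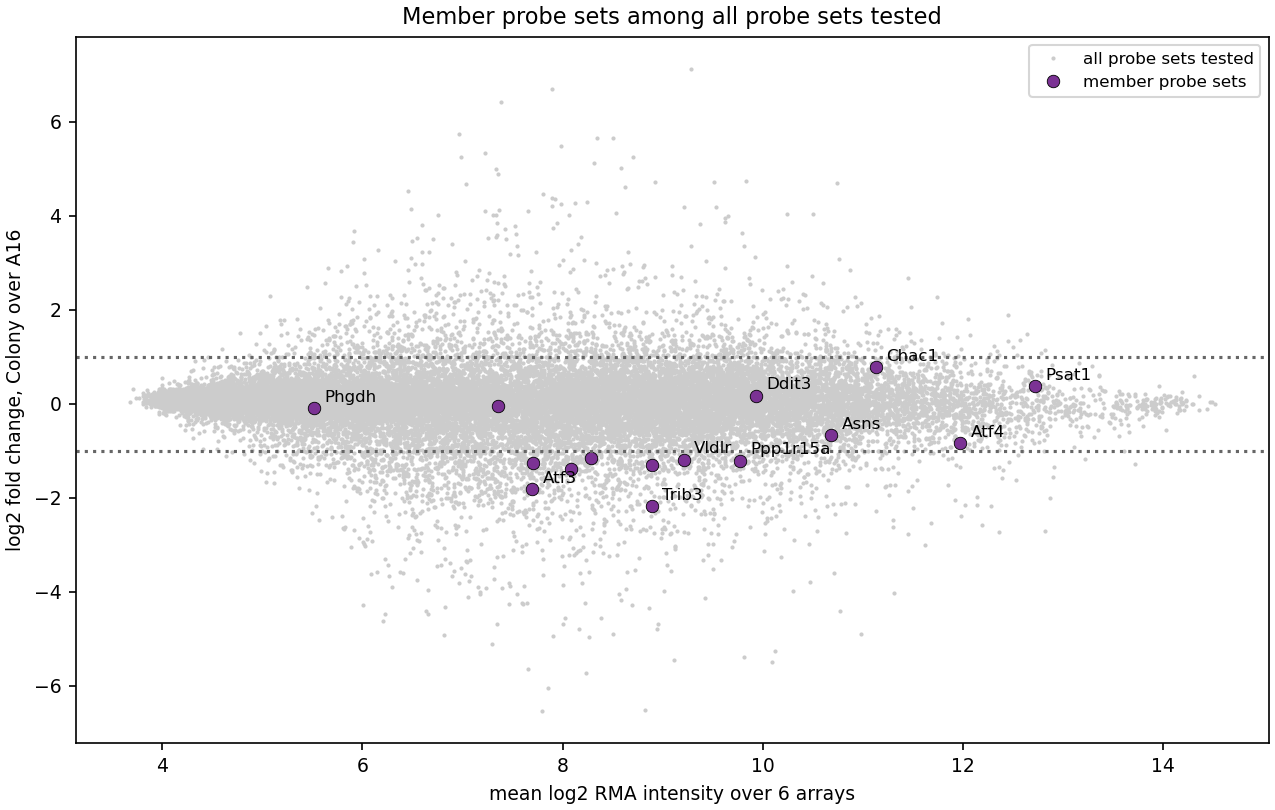
Log2 fold change, Colony over A16 (vertical axis), against mean log2 RMA intensity over the 6 arrays (horizontal axis) for all 31042 probe sets in grey and the 15 member probe sets in purple, with the brightest of each gene named and dotted lines at a 2-fold change. The 8 member probe sets below the lower line belong to Trib3, Atf3, Ppp1r15a and Vldlr, while Psat1 and Atf4 stand among the brightest and Phgdh among the dim.

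Upstream of ATF4, 16 genes for the eIF2α kinases and their regulators, the phosphatase partners, eIF2 and its exchange factor eIF2B were measured. Of these 1 fell, none rose and 15 did not pass both thresholds, with a median log2 fold change of -0.15. Whatever the fold, 2 were lower and 1 higher at an adjusted p under 0.05, beside 10.8% lower and 12.9% higher among all genes. The gene that fell was Eif2ak2, which encodes the double-stranded RNA kinase PKR and is also an interferon target, with 713, 960 and 1108 in Colony and 2411, 2292 and 2841 in A16 cells. Its log2 fold change was -1.43 (limma adjusted p = 0.00236). Eif2ak3, for the endoplasmic reticulum kinase PERK, and Eif2ak4, for the amino acid sensor GCN2, had log2 fold changes of -0.18 (95% interval -0.49 to 0.13) and 0.30 (95% interval -0.03 to 0.63). None of the measured subunit genes of eIF2 and eIF2B passed the test.

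Among 15 bZIP partners and relatives of ATF4, 1 fell and none rose, with a median of -0.51. Whatever the fold, 4 were lower and 1 higher at an adjusted p under 0.05, beside 10.8% lower and 12.9% higher among all genes. Atf5, the closest relative of ATF4, had 561, 588 and 464 in Colony and 1139, 1158 and 4006 in A16 cells. The groups did not overlap, but A16 biological replicate 2 stood far above the other arrays. The log2 fold change of -2.06 (SE 0.51, limma adjusted p = 0.0294) was -1.15 (adjusted p = 0.00416) without A16 replicate 2, and no longer passed without Colony replicate 1 (adjusted p = 0.0645) or replicate 2 (adjusted p = 0.104). Cebpb and Cebpg, which encode C/EBP partners of ATF4, had 0.42 (limma adjusted p = 0.19) and -0.24 (limma adjusted p = 0.311), although a dimmer Cebpg probe set, 1371038_at, fell with -1.84.

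Of 10 enzymes of serine, glycine and one-carbon metabolism none passed both thresholds, with a median of -0.21. At an adjusted p under 0.05 whatever the fold 4 were lower and 1 higher, beside 10.8% lower and 12.9% higher among all genes. Those were Mthfd2 (-0.95), Shmt2 (-0.87), Psph (-0.76) and Shmt1 (-0.74), and Gldc (0.84) on the other side. These 5, like Gpt2, Slc3a2, Slc1a5, Slc38a2 and Lrp8 below and every dimmer probe set given, were named after their values were seen. Of 8 enzymes for proline, aspartate, alanine and sulphur amino acids only Cth fell by its brightest probe set, with a list median of -0.16, and Gpt2, an alanine aminotransferase, was lower by less than 2 times (-0.70, limma adjusted p = 0.0106). Dimmer probe sets of Bcat1 (-1.76), Gpt2 (-1.03) and Pycr3 (-1.07) fell. Cth encodes cystathionine gamma-lyase, which makes cysteine, and read 46.0, 37.4 and 48.1 in Colony cells, against 923, 874 and 826 in A16 cells. The groups did not overlap (log2 fold change -4.27, SE 0.14, limma adjusted p = 1.39e-05). The Colony level was about as dim as that of Phgdh, so the size of this fold is uncertain, and PLIER with 16 added gave -3.68.

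Of 10 amino acid transporters under ATF4 control 1 fell and none rose, with a median of -0.26. Slc7a5, the light chain of the large neutral amino acid carrier LAT1, had 203, 197 and 217 in Colony and 753, 1095 and 923 in A16 cells, without overlap (log2 fold change -2.13, SE 0.13, limma adjusted p = 0.000106). Its heavy chain Slc3a2 (-0.89, limma adjusted p = 0.00398) and the glutamine carrier Slc1a5 (-0.80, limma adjusted p = 0.00534) were lower by less than 2 times, and Slc38a2, a sodium-coupled carrier, was higher by less than 2 times (0.83, limma adjusted p = 0.00501). The arginine carrier Slc7a1 had -0.24 (limma adjusted p = 0.357) by its brightest probe set, while its probe sets 1368392_at (-2.00) and 1387167_at (-1.34) fell. The lists of enzymes and carriers therefore held values of both signs.

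None of the 19 cytosolic aminoacyl-tRNA synthetase genes, which load amino acids on tRNA, rose or fell by its brightest probe set. Their median was -0.39, and 7 were lower and none higher at an adjusted p under 0.05 whatever the fold, beside 10.8% lower and 12.9% higher among all genes. Of their 15 dimmer probe sets, 7 fell, with a median of -0.69. The dimmer probe sets of Eprs1 had -4.17 (1382040_at), -2.70 (1383455_at) and 0.30 (1382648_at), so that probe sets of 1 gene differed widely. Over all the pathway lists, 16 of 62 dimmer probe sets fell and none rose. A split of this kind was also seen over the array. Among the 4525 genes with several probe sets, 5.19% of the brightest probe sets fell and 5.75% rose, while 12.8% of the 6609 other probe sets fell and 2.94% rose. This stood beside the higher 3′ over 5′ ratios of the Colony arrays given above. Of the members, 8 had 1 probe set and could not be checked against another, and its part in their values was not tested.

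Of 19 further stress effectors downstream of ATF4 and CHOP, 2 fell and 1 rose, with a median of -0.25. Whatever the fold, 5 were lower and 2 higher at an adjusted p under 0.05, beside 10.8% lower and 12.9% higher among all genes. Gadd45a and Gadd45b, growth arrest genes that p53 and other factors also control, had log2 fold changes of -2.35 (limma adjusted p = 0.000162) and -2.00 (limma adjusted p = 0.000137). Bcl2l11, which encodes the pro-apoptotic protein BIM and is a target of CHOP and of FOXO factors, read 616, 698 and 657 in Colony cells, against 208, 218 and 248 in A16 cells. It was the only pathway gene that rose (log2 fold change 1.51, SE 0.14, limma adjusted p = 0.000583), and its dimmer probe sets 1370787_at and 1387338_s_at had -0.03 and -0.14.

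Of 8 paralogs of the members, Atf5 fell and none rose, and Lrp8, a receptor related to Vldlr, was higher by less than 2 times (0.93, limma adjusted p = 0.0101) without overlap. Ppp1r15b, the constitutive counterpart of Ppp1r15a, had -0.59 (limma adjusted p = 0.0957) with overlapping groups, and the Trib3 relatives Trib1 and Trib2 had -0.88 (limma adjusted p = 0.0283) and -0.37 (limma adjusted p = 0.114). In the ATF6 and XBP1 arms of the unfolded protein response, which share the endoplasmic reticulum as their source of stress with PERK, 1 of 16 genes fell and none rose, with a median of -0.09. That gene was Hyou1, a chaperone, with 82.5, 81.5 and 82.6 in Colony and 213, 211 and 342 in A16 cells (log2 fold change -1.71, limma adjusted p = 0.00258). Of the same 16 genes, 3 were lower and 1 higher at an adjusted p under 0.05 whatever the fold, beside 10.8% lower and 12.9% higher among all genes. Over all these lists 7 of 116 measured genes fell and 1 rose, which is 6.9% moving either way. Of all 14217 genes, 1296 moved either way, with 4.75% that fell and 4.36% that rose. At an adjusted p under 0.05 whatever the fold, 30 were lower and 8 higher, beside 10.8% lower and 12.9% higher among all genes, and the median was -0.24.

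**Figure D4:**
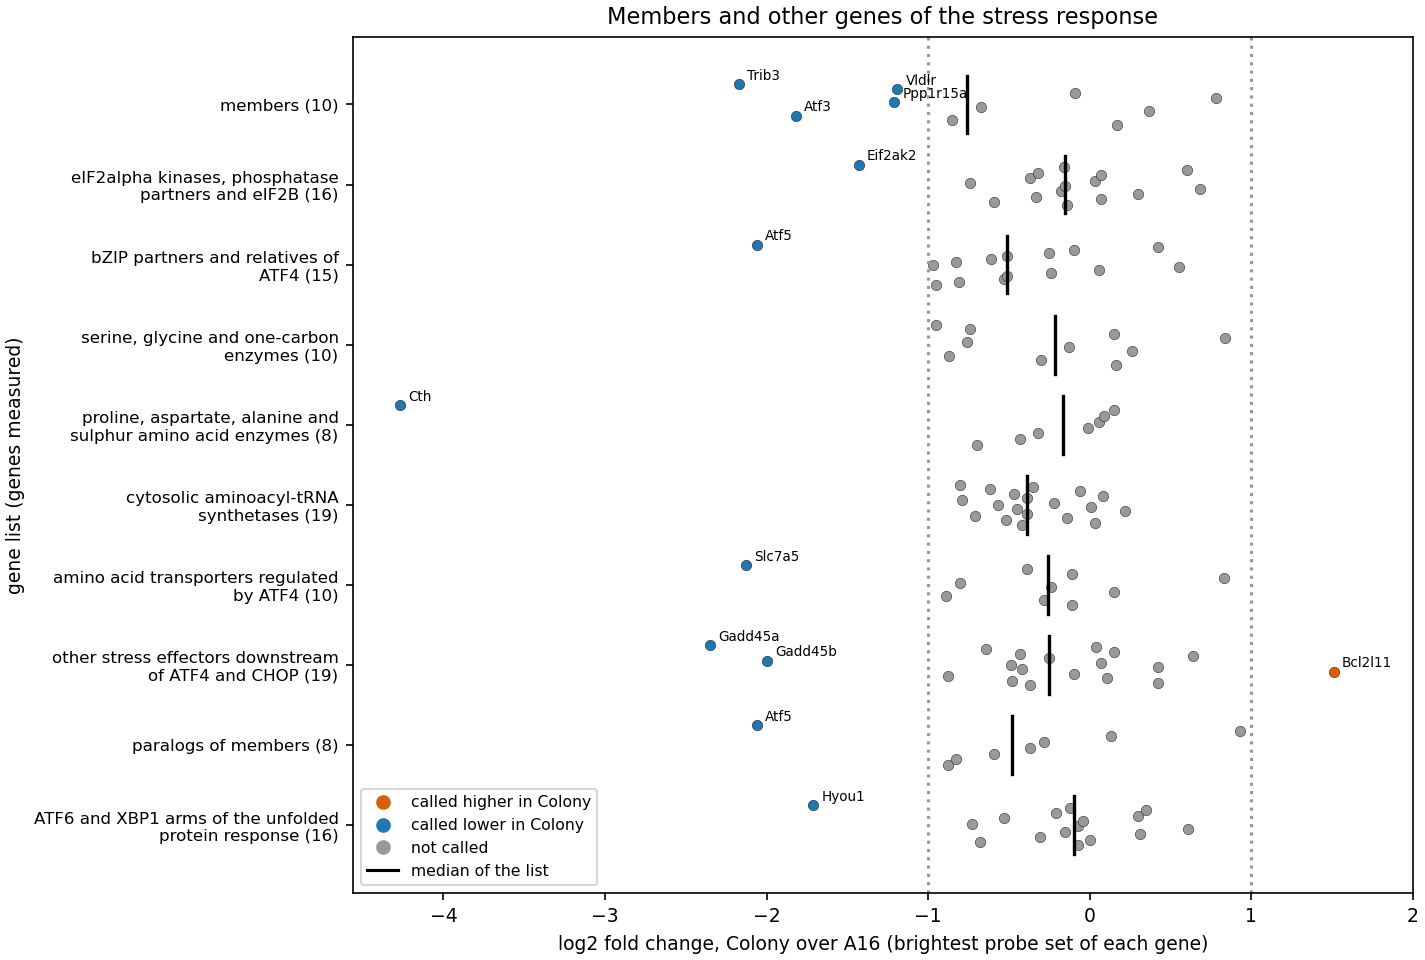
Log2 fold change, Colony over A16 (horizontal axis), of each gene by its brightest probe set for the 10 members and for each other list (rows, with the number measured); blue dots fell, orange dots rose, grey dots did not pass both thresholds, black ticks show each median and the dotted verticals stand at 2 times higher or lower. The members have the lowest median, -0.76, and most genes of the other lists lie between the dotted lines, with Cth at -4.27 and Bcl2l11 at 1.51 as the extremes.

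Trib3 had the largest fold change of the members by brightest probe sets, and this probe set was compared with other genes. Those with the most similar pattern were Tagln, Usp18 and Lgals3bp, all with Pearson r of at least 0.9998 over 6 arrays. Their log2 fold changes were -6.51, -1.89 and -3.79. Tagln encodes an actin-binding protein of contractile cells, Usp18 an interferon-induced protease and Lgals3bp a secreted galectin ligand. Of 13982 genes compared, 264 had an r over 0.99 with Trib3. With 6 arrays in 2 groups, such likeness mainly says that replicates were close and the groups apart.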

How the data were processed

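RNA of F111 Colony and A16 cells was hybridised to 6 Affymetrix Rat Genome 230 2.0 arrays. The deposited values were intensity values on a linear scale, summarised per probe set by the authors with RMA and again with PLIER (no version is stated for either). Scanner files were not used. RMA intensities were taken as log2 with nothing added, and PLIER as log2(value + 16). The 57 control probe sets were left out, so 31042 were tested. The technical array was averaged with biological replicate 1 of its group, and limma 3.58.1 (lmFit and eBayes, R 4.3.3) compared 2 cultures per group with 1 shared spread. The labels call them biological replicates without saying more. The limma p-values rest on the spread between these cultures, which eBayes draws towards the spread of all probe sets (prior degrees of freedom 4.76). The small number of arrays limits the precision.

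Probe sets took their gene from the platform annotation (20826 with 1 symbol, 436 with several, 9780 with none), matched to the RefSeq gene table of GRCr8 by gene number for 20758 and by accession for 2, and the brightest probe set stood for each gene. Promoter sequences were RefSeq's in GRCr8 and were searched with Python 3.11.15. Named were all members, up to 4 changed genes per list, and Eif2ak2, Eif2ak3, Eif2ak4, Cebpb, Cebpg, Ppp1r15b, Trib1 and Trib2 whatever their value. Also named were the 3 genes most like the member with the largest fold change by brightest probe sets. Genes and probe sets named outside this rule are given in the text as chosen after their values were seen, and cell type markers are named as such. Alternatives were PLIER, other treatments of the technical array, the replicate number as a block, 2 other normalizations, a filter on dim probe sets, leaving out each replicate, the mean of a gene's probe sets and the methods' t-test. The fit was tested on simulated data. The members and lists were chosen with earlier results of these data known.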

Additional observations from a re-analysis of the deposited data

How the results depend on the processing

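The count of members that fell, 4, was also 4 in every setting run other than these: the mean of all probe sets of a gene (3), the methods' t-test after Benjamini-Hochberg adjustment (0) and leaving out 1 replicate (3 to 5). No member rose, except Chac1 where the technical arrays were averaged with biological replicate 2 (1 gene) or without Colony replicate 2 (0 to 1 over the left-out replicates). For the other pathway genes, 7 fell and 1 rose. PLIER gave 11 that fell with 16 added and with nothing added, and 2 that rose with nothing added. The mean of all probe sets of a gene gave 14 that fell and 0 that rose, and leaving out 1 replicate gave 7 to 12 that fell (12 without A16 replicate 1) and 1 to 2 that rose. Over all probe sets, 3045 passed, and leaving out 1 replicate gave 2794 to 3637, with 1282 to 1328 higher and 1498 to 2318 lower. The methods' t-test, with 2 cultures per group, called 0 probe sets after adjustment, higher or lower, 0 members and 0 pathway genes. At an unadjusted p under 0.05 and a fold over 2 it called 2383 probe sets (1070 higher, 1313 lower) and 4 members lower, and limma gave 10554 probe sets at an unadjusted p under 0.05 whatever the fold. Samples with the same replicate number did not deviate together (r = -0.15). With 2 cultures per group and the technical array placed by choice, this cannot settle whether the numbers pair the cultures. The replicate block gave 3121 probe sets (1254 higher, 1867 lower), 4 members lower, and 7 pathway genes lower and 1 higher. Crossing the numbers, chosen after seeing the data, gave 3135 probe sets (1256 higher, 1879 lower), with 4 members lower and 7 pathway genes lower and 1 higher. Neither block moved a count by over 1.5 times. The sign of Phgdh turned to 0.01 with PLIER (16 added), 0.02 with PLIER (nothing added), 0.01 with technical arrays averaged with replicate 2 and 0.01 with them left out. Vldlr probe set 1392924_at turned to 0.01 with technical arrays left out, 0.05 with quantile normalization, 0.08 without A16 replicate 1 and 0.09 without Colony replicate 1 (-0.17 to 0.09 over the left-out replicates). Over the member probe sets and alternatives, 197 values kept their direction and the call that needs both thresholds, 8 changed sign, 3 came to pass and 2 ceased to. Among the 197, the adjusted p went over 0.05 for Asns without A16 replicate 1 (0.0654) and without Colony replicate 2 (0.0689), for Atf4 without Colony replicate 2 (0.0526), and for Chac1 with PLIER (0.0774 and 0.0855), with technical arrays left out (0.0755) and without A16 replicate 1 (0.116) or Colony replicate 1 (0.157). The causes were not tested. Dim probe sets such as that of Phgdh limit what could be detected.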
